A study of Mus musculus with 12 samples.

Results

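Growing oocytes of Ring1-/- mice were set against growing oocytes whose Ring1 is intact. Both groups are controls of conditional knockouts and both were taken from the ovary on postnatal day 7. The Ring1-null group is the control of the PRC1 experiment, with the genotype Ring1-/-; Rnf2F/+; Ddx4-Cre. The Ring1-intact group is the control of the PRC2 experiment, with the genotype EedF/+; Ddx4-Cre. A Cre recombinase driven by the germ cell gene Ddx4 and 1 floxed allele are therefore shared in kind, but the floxed gene is Rnf2 in the first group and Eed in the second. Each group has 2 RNA-seq libraries of primary oocytes, so 4 of the 12 libraries of the series were compared. They were chosen by genotype and stage labels alone. Whether libraries of the same group stem from different animals is not in the labels, so the p-values measure the spread between these libraries, which may be technical.

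The other 8 libraries are growing oocytes of the PRC1 conditional knockout (cKO, labelled Ring1-/-; Ring1F/-; Ddx4-Cre), growing oocytes of the PRC2 cKO (EedF/-; Ddx4-Cre), and day 6 non-growing oocytes of the PRC2 control and PRC2 cKO, 2 of each. The Ring1-null controls stand in 1 deposited table and the Ring1-intact controls in another, so genotype, floxed gene and table cannot be told apart, and each difference given here is a difference between 2 pairs of libraries. Values are transcripts per 1000000 (TPM), a length-adjusted level, which were rescaled jointly over the 4 libraries. Of 55382 gene models found in both tables, 12528 reached 1 TPM in at least 2 of the 4 libraries and were tested. Differences are on the log2(TPM + 1) scale, Ring1-null minus Ring1-intact, and understate the change of low genes. A gene is called higher or lower where its limma p, adjusted over all 12528 genes by the Benjamini-Hochberg method, is at most 0.05.

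Polycomb repressive complex 1 (PRC1) attaches ubiquitin to histone H2A at lysine 119 (H2AK119ub1), a mark of repressed developmental genes. Its catalytic subunit is either RING1 or RNF2, which are paralogs that can substitute for each other in many cells. Each pairs with 1 of several PCGF proteins. Canonical complexes add a CBX protein, which reads the H3K27me3 mark left by PRC2, and a PHC protein. Variant complexes add RYBP or YAF2 in place of CBX. In growing oocytes the maternal store of RNA and protein is laid down, and PRC1 is known to be needed in oocytes for the competence of the later embryo.

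The promoters of the paralog pair are shown because the comparison is defined by loss of the first and by what the second does in its absence. Both are RefSeq sequences of build GRCm38.p6 on the minus strand, with each CG dinucleotide in capitals. They run from 250 bases before the RefSeq start of the gene to 50 after it. The gene coordinates given below for Rnf2 have a different start, so its interval is not placed by them. Ring1 (chr17:34024631-34024930) holds 37 CG, and 5.58% of 32851 promoters of this length hold as many or more. Rnf2 (chr1:151500942-151501241) holds 30, and 11.7% of promoters hold as many or more.
Ring1: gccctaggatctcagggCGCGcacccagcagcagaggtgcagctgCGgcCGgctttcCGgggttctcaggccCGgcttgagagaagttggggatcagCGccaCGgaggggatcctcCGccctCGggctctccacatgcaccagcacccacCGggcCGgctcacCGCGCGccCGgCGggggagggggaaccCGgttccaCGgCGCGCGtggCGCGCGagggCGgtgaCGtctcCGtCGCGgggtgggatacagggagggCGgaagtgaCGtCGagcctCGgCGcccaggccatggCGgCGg
Rnf2: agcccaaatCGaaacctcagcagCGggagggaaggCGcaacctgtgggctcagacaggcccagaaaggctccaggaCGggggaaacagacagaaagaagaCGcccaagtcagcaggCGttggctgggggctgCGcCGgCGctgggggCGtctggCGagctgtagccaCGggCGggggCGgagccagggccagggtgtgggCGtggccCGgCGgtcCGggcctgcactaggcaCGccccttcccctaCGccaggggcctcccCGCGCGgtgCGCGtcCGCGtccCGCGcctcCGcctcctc

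Ring1 RNA was very low in every growing oocyte library, with or without the gene. Ring1 (ENSMUSG00000024325, chr17:34020792-34024680, GRCm38) was listed at 0 TPM in both Ring1-null control libraries. Its deposited level with Ring1 intact was 0.35 and 0.32 TPM in growing controls. The PRC1 cKO libraries, which are Ring1-null as well, had 0.01 and 0.02 TPM. The order of the groups follows the labels, with no overlap between Ring1-null and Ring1-intact libraries, although a level this low did not reach the filter and Ring1 was not tested. In non-growing oocytes, which are Ring1-intact, PRC2 controls had 0.92 and 0.57 TPM of it. The PRC2 cKO had 0.62 and 0.69 TPM there, so these groups overlap.

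Rnf2 (chr1:151458004-151500955), which encodes the other H2A ubiquitin ligase, was the abundant paralog in both groups. Its rescaled level was 56.2 and 46.5 TPM without Ring1 and 42.9 and 43.0 TPM with Ring1. The 2 pairs did not overlap, but the difference of 0.25 (SE 0.13) on the log2 scale did not pass the test (limma adjusted p = 0.203). The Ring1-null controls also carry 1 floxed Rnf2 allele with Ddx4-Cre, and gene-level TPM does not separate a deleted from an intact allele. After the differences were centred by GC content, described below, the Rnf2 difference was 0.55 with an adjusted p of 0.0229. In the PRC1 cKO libraries the deposited Rnf2 level was 87.8 and 61.4 TPM.

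Eed (chr7:89954654-89980983), the PRC2 subunit that binds H3K27me3, serves as the matching check on the other side, because the Ring1-intact controls carry the floxed Eed allele. It had 92.7 and 74.7 TPM in the Ring1-null libraries and 69.1 and 66.4 TPM in the Ring1-intact libraries, a difference of 0.29 (SE 0.13) that did not pass (limma adjusted p = 0.157). Both checks had their lower values in the Ring1-intact pair.

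**Figure D1:**
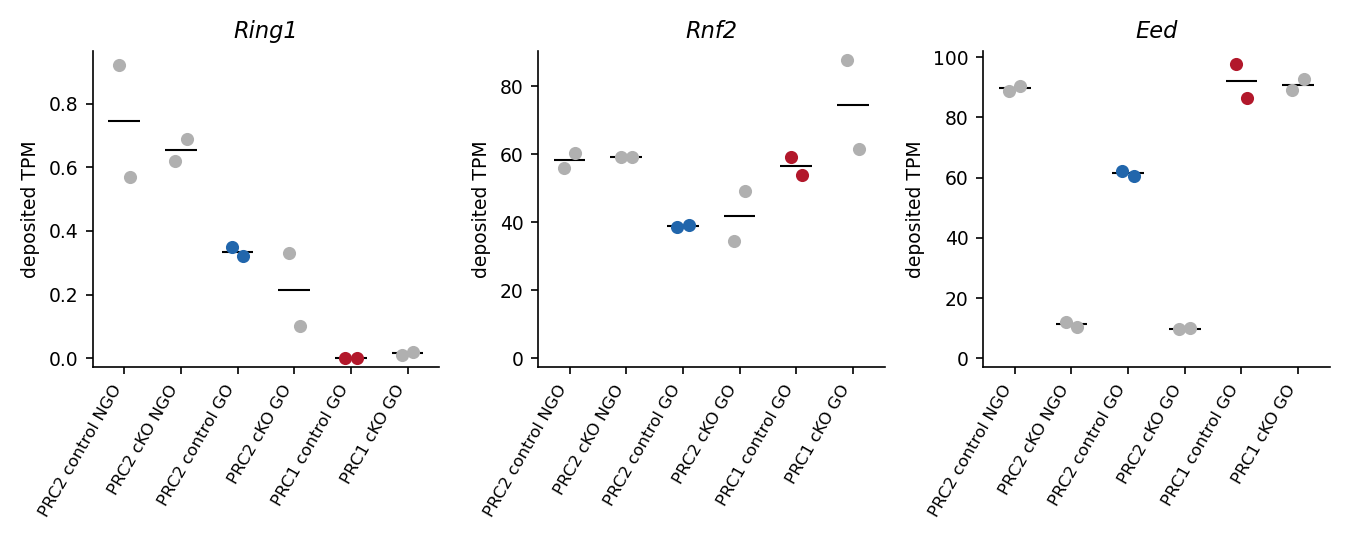
Deposited TPM of Ring1, Rnf2 and Eed (vertical axes, linear, 1 scale per panel) in the 12 libraries of the series; points are libraries and bars group means, GO is growing and NGO non-growing, red is the Ring1-null control and blue the Ring1-intact control. Ring1 is at 0 in both red points and below 1 TPM in every library, and the red Rnf2 and Eed points lie above the blue ones.

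The 2 pairs of libraries differed widely. Of 12528 genes, 3308 were called, which is 26.4% of those tested. Of these, 1681 (13.4%) were higher and 1627 (13.0%) lower in the Ring1-null libraries. A difference of at least 2-fold was found for 1382 genes (11.0%), and 1171 of those were also called. The 2 groups did not overlap for 4392 genes that lay higher and 4672 that lay lower. Across all tested genes, Pearson's r of log2 values was 0.982 between the Ring1-null libraries, 0.973 between the Ring1-intact libraries and 0.913 to 0.933 between libraries of different groups.

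A fit without 1 library measures spread in the other group only. The number of calls fell whichever library was left out, and furthest without either of the Ring1-null libraries. Without either of them, leaving 1 Ring1-null library that is assumed to vary like the others, 5 genes were called. Without the first or the second Ring1-intact library, 481 and 389 were called.

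The differences followed the base composition of the transcript. Among 10559 nuclear protein-coding genes, Spearman's rho between the GC content of the longest transcript and the difference was 0.428 across genes, which share the same 4 libraries. Genes were split into 5 equal groups by GC content. In the group with the lowest, 31.0% to 43.3%, the median difference was -0.29, with 50 genes higher and 466 lower of 2112. In the group with the highest, 54.5% to 69.5%, the median was 0.41, with 640 genes higher and 138 lower. The trend with transcript length was weaker, with a rho of 0.095, although the group of 5 with the shortest transcripts had 159 genes higher and 495 lower. What part the GC trend has in the result of a single gene was not tested, so values centred within bins of GC content are given beside the groups they move. With that centring, an alternative chosen after seeing the data, 2918 genes were called, 1375 higher and 1543 lower, and 2283 of these were called without it as well.

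**Figure D2:**
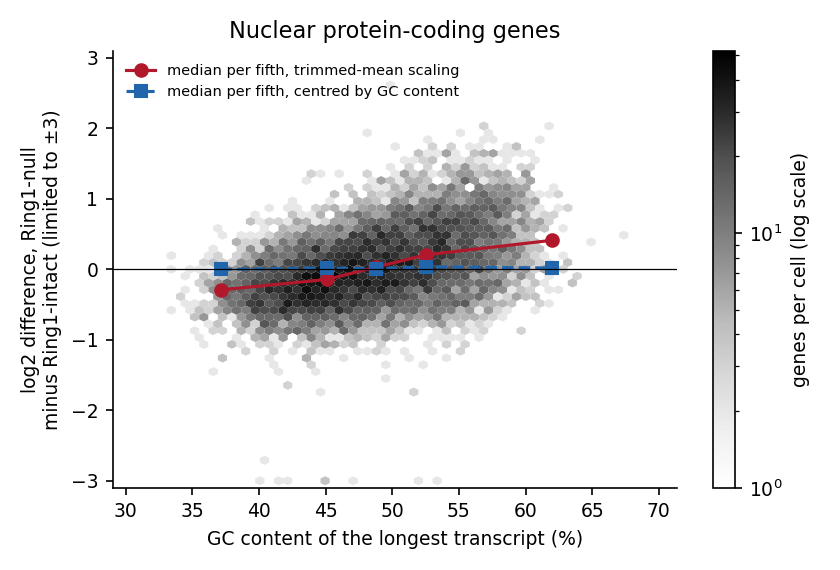
GC content of the longest transcript (horizontal axis, %) against the log2 difference, Ring1-null minus Ring1-intact (vertical axis, values limited to ±3), for 10559 nuclear protein-coding genes; shading is the number of genes and the lines join the medians of 5 equal groups of genes, placed at the middle of their GC range. The median climbs from -0.29 to 0.41 with joint rescaling and stays between 0.00 and 0.04 after centring by GC content.

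Growing oocytes of the PRC1 cKO and the PRC2 cKO give a second pair of groups that shares no library with the first, yet shares the split by Ring1 genotype and by table. These groups also differ by deletion of the other targeted genes, so they are no replicate of the comparison. Of the 1681 genes higher in Ring1-null controls, 720 (42.8%) were higher without overlap in PRC1 cKO than in PRC2 cKO libraries, where 35.4% of all tested genes were. Of the 1627 lower genes, 1002 (61.6%) were lower without overlap, against 34.8% of all tested genes. In the opposite direction stood 181 (10.8%) of the higher and 171 (10.5%) of the lower genes.

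Homer2, Slc28a1 and Kcnh1 were the protein-coding genes with the largest higher levels that were not listed at 0 in either group. Homer2 encodes a scaffold protein of the synapse that binds metabotropic glutamate receptors. Its level was 118.5 and 120.5 TPM in the Ring1-null libraries and 9.78 and 9.75 TPM in the Ring1-intact libraries, a difference of 3.49 (SE 0.10, limma adjusted p = 0.000298). In deposited TPM, the PRC1 cKO libraries had 105.2 and 96.8, and the 8 libraries of the PRC2 table, growing and non-growing, lay between 6.73 and 9.86. Homer2 was thus high in each of the 4 Ring1-null libraries and low in each of the 8 Ring1-intact ones.

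Slc28a1 encodes a concentrative nucleoside transporter and is a neighbour of Homer2 on chromosome 7 (chr7:81114799-81170416 and chr7:81600481-81707527). It had 19.6 and 20.3 TPM against 0.84 and 1.06 TPM, a difference of 3.43 (SE 0.17, limma adjusted p = 0.00121). Its deposited level was 96.6 and 121.7 TPM in the PRC1 cKO libraries and at most 1.07 TPM in the PRC2 table. Both genes lie within 10 Mb of Eed, where 20 of 90 tested genes were higher and 14 lower, or 37.8% called against 26.4% of all genes. Kcnh1, a voltage-gated potassium channel, had 22.9 and 22.4 TPM against 1.46 and 1.52 TPM (difference 3.25, SE 0.16, limma adjusted p = 0.00112). Kcnh1 did not follow the split by Ring1 in the knockouts: its deposited level was 8.45 and 8.82 TPM in PRC1 cKO and 4.49 and 10.8 TPM in PRC2 cKO growing oocytes.

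Among the other higher genes were Kifc1, a minus-end kinesin of the spindle, and Tdrd9, a helicase of the piRNA pathway. Kifc1 had 82.6 and 113.0 TPM against 12.1 and 12.3 TPM (difference 2.89, SE 0.17, limma adjusted p = 0.00219), and 39.7% of its 50-base words occur in transcripts of other genes, which makes its level less certain. Tdrd9 had 45.5 and 50.4 TPM against 9.82 and 5.06 TPM (2.59, SE 0.29, limma adjusted p = 0.0124). Dtx2, an E3 ligase of the Notch pathway, had 42.2 and 90.9 TPM against 10.7 and 10.5 TPM, and the 2 Ring1-null libraries differed more from each other than the Ring1-intact ones did. Osgin1, induced by oxidative stress, had 10.9 and 20.1 TPM against 1.56 and 2.49 TPM. Mall, a membrane raft protein, had 17.4 and 15.6 TPM against 5.16 and 0.90 TPM. The 5 genes passed the test, and after centring by GC content the differences of Kifc1, Tdrd9 and Dtx2 were 2.45, 2.51 and 2.23.

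Several of the genes with large differences share sequence with near-identical copies, and reads could be divided between copies in either direction. Of the 50-base words of the transcripts of Dynlt1b, a dynein light chain (304.4 and 312.3 TPM against 49.6 and 49.7 TPM), 83.2% also occurred in transcripts of other genes. The share was 91.3% for Hgs, an endosomal sorting protein, 62.4% for Rsph3b, a radial spoke protein, and 74.2% for the histone gene H2bc12. These 4 genes were called higher, but their levels are uncertain for that reason.

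Oog3, an oocyte-specific gene of the PRAME-like family on chromosome 4, was among the genes with the largest differences downward, and 19.7% of its 50-base words were shared with transcripts of other genes. Its level was 12.5 and 8.30 TPM in the Ring1-null libraries and 319.7 and 514.7 TPM in the Ring1-intact libraries, a difference of -5.18 (SE 0.29, limma adjusted p = 0.0018). The deposited level was 0.80 and 9.63 TPM in PRC1 cKO and 605.1 and 559.2 TPM in PRC2 cKO growing oocytes, so it was low in the 4 Ring1-null libraries and high in the other growing ones. Its neighbour Oog2 had 6.18 and 3.87 TPM against 41.8 and 59.5 TPM (-3.11, SE 0.26), with 33.4% of its words shared. Oog1, of the same family, had 124.9 and 79.1 TPM against 172.3 and 212.0 TPM, and its difference of -0.94 passed with an adjusted p of 0.0444 but not after GC centring (adjusted p = 0.0704).

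Nms, which encodes the neuropeptide neuromedin S, stood at 30 and 21.8 TPM in the Ring1-intact libraries and was listed at 0 in both Ring1-null controls. In deposited TPM it was at 0 and 0.04 in PRC1 cKO and at 25.8 and 10.3 in PRC2 cKO growing oocytes. Mymx, a peptide of the myoblast fusion machinery, had 0.66 and 0.84 TPM against 31.5 and 28.3 TPM (difference -4.14, SE 0.17, limma adjusted p = 0.000795). The non-growing oocytes of the PRC2 table had between 0.79 and 3.33 TPM of Mymx. Both genes were therefore at their highest in Ring1-intact growing oocytes.

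Other protein-coding genes called lower, with differences from -3.1 for Mvb12b to -4.34 for Akr1c21, were Akr1c21 (a hydroxysteroid dehydrogenase), Pla2g4e (a cytosolic phospholipase), Tmem87a (a Golgi membrane protein), Cd200r3 (an immune receptor), Arid5b (a DNA-binding regulator) and Mvb12b (a subunit of an endosomal sorting complex). Mvb12b was the most abundant of these, with 26.5 and 26.3 TPM against 172.3 and 314.9 TPM. Fyb, an adaptor protein of T cells, had 0.09 and 0.16 TPM against 9.15 and 22.5 TPM. Its deposited level in PRC1 cKO libraries was 20.9 and 27.4 TPM, so the low level was not shared by the 4 Ring1-null libraries.

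Kpna2 and Eno1b were called lower with much shared sequence. Kpna2, a nuclear import receptor, had 86.7 and 72.9 TPM against 512.8 and 1738 TPM, with 62.6% of its words shared. Eno1b, an enolase copy that shares 85.2% of its words, had 0.49 and 0.41 TPM against 28.9 and 47.1 TPM. Its parent Eno1, the glycolytic enolase, stood the other way, at 116.7 and 129.2 TPM against 73.6 and 45.5 TPM (1.07, SE 0.23, limma adjusted p = 0.0322).

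**Figure D3:**
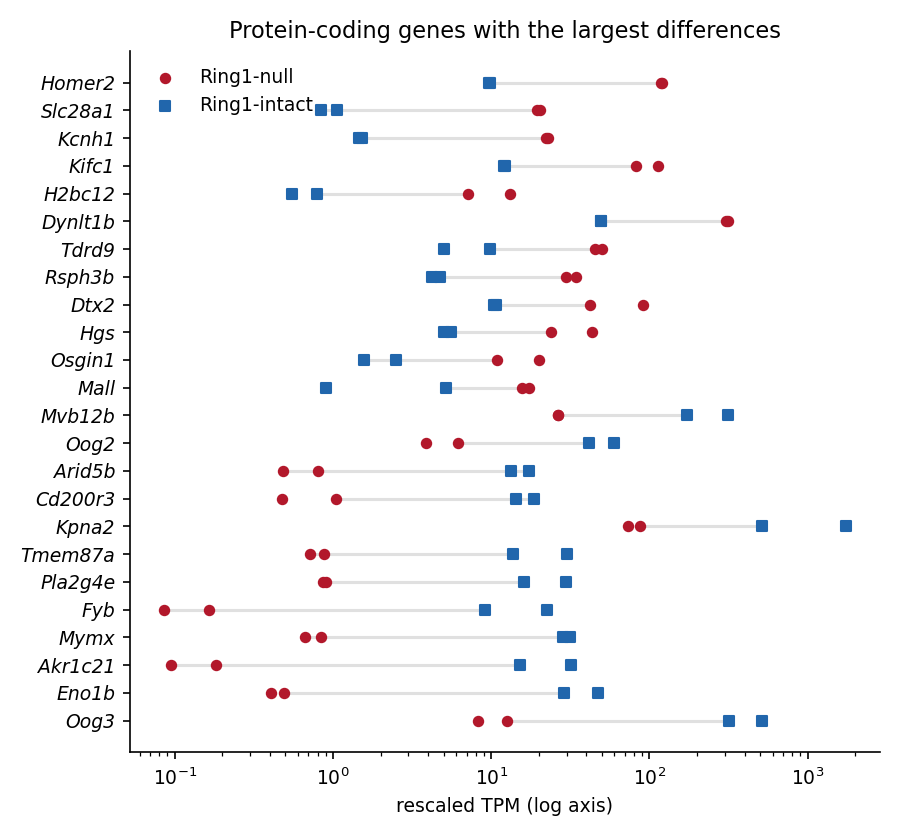
Rescaled TPM (horizontal axis, log scale) of the 12 protein-coding genes with the largest higher and the 12 with the largest lower level, not listed at 0 in either group and leaving out related-sequence copies; red circles are the 2 Ring1-null libraries, blue squares the 2 Ring1-intact libraries, and grey lines join the first library of each group. The circles lie to the right of the squares for the upper 12 genes, with Homer2 at 118.5 and 120.5 against 9.78 and 9.75, and to the left for the lower 12.

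Small RNA models made up many of the largest differences. Mitochondrial tRNA models, transcribed from the mitochondrial genome between its mRNAs, were above 0 for 9 and 7 of 22 in the Ring1-null control libraries and for 0 of 22 in both Ring1-intact growing libraries. The 6 that could be tested were called higher. The serine tRNA mt-Ts1 was the most abundant, at 237.4 and 240.4 TPM against a listed 0. In the PRC1 cKO libraries 13 and 12 of the 22 were above 0, and in the remaining PRC2 libraries 1 at most. This class therefore followed the split between the tables in each library but for that 1 model.

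Of 118 miRNA models tested, 40 (33.9%) were called higher and 11 (9.32%) lower, against 13.4% and 13.0% of all genes. The class held 6.96% and 6.32% of TPM in the Ring1-null libraries against 3.5% and 3.38%. The predicted models Gm23801, Gm24331 and Gm24485, named here after their values were seen, account for most of that gap. Gm23801 had 9476 and 7735 TPM, Gm24331 8024 and 6578 TPM, and Gm24485 9572 and 7427 TPM in the Ring1-null libraries, and each was listed at 0 in both Ring1-intact libraries. Mir7035 had the largest difference of the named miRNA genes, with 203.9 and 166.0 TPM against a listed 0. It lies inside Rasa4 (chr5:136105522-136105603), and each 50-base word of the model also occurs in transcripts of other genes, so that reads of longer transcripts cannot be told apart from it. Rasa4, a Ras GTPase activator, had 127.7 and 114.0 TPM against 167.2 and 182.1 TPM, the opposite direction. In PRC2 cKO growing oocytes Mir7035 was at 453.6 and 180.8 TPM, so it did not follow the split by table. Its RefSeq mature sequences are printed with the seed, bases 2 to 8, in capitals, because it led the named miRNA models.
mmu-miR-7035-5p: gGCUGGGAgaguggcucagaa
mmu-miR-7035-3p: uCUGAGCCgcugucccugcag

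In total 78 called genes were listed at 0 in both Ring1-intact libraries and 31 in both Ring1-null libraries. A listed 0 can be a failed estimate in a table without counts, so no fold is given for them.

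Genes around Ring1 on chromosome 17 were called more often than genes in general, 35.7% of those within 2 Mb against 26.4% of all tested. Ring1 lies in the major histocompatibility complex (MHC) region. Of 98 tested genes that start within 2 Mb of it, 27 were higher and 8 lower, with a median difference of 0.21 against -0.03 for all genes. At least 2-fold differences made up 24.5% of these genes against 11.0% of all. With centring by GC content, 15 were higher and 12 lower, or 27.6% called against 23.3% of all. The median was then -0.02, and 16.3% differed by 2-fold or more against 8.90% of all. The share of 2-fold differences thus stayed above that of all genes, while the excess of calls and that of higher over lower genes shrank.

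Within 10 Mb of Ring1, 73 of 261 genes were higher and 30 lower, or 39.5% called, and 34.1% were called after GC centring. Among all genes tested these shares were 26.4% and 23.3%. Within 10 Mb of Rnf2 on chromosome 1, 4 of 66 were higher and 8 lower, or 18.2% called. Within 10 Mb of Eed on chromosome 7 the share was 37.8% of 90 genes, and 34.4% after GC centring, close to that around Ring1. Chromosome 17 as a whole had the highest share of 2-fold differences among the chromosomes with more than 20 tested genes, 17.5% of 607, and also after GC centring, 13.8%. The deleted and floxed alleles cannot be told apart from the table by these values.

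Beside Kifc1, which starts 145.1 kb from Ring1, the nearest called genes were of several functions. Vps52, a tethering protein of endosome-to-Golgi transport 65.0 kb away, had 10.7 and 16.7 TPM against 3.99 and 2.74 TPM (1.74, SE 0.27). Wdr46, a nucleolar protein, had 14 and 20.1 TPM against 4.82 and 4.69 TPM (1.63, SE 0.21). H2-K1, a class I MHC heavy chain 24.8 kb away, had 108.5 and 137.4 TPM against 53.3 and 64.8 TPM (1.04, SE 0.16). These 4 genes passed with GC centring as well, with adjusted p of 0.00161 for Kifc1, 0.0186 for Vps52, 0.0156 for Wdr46 and 0.0289 for H2-K1. Slc39a7, a zinc transporter beginning 7.48 kb from Ring1, had 5.6 and 9.05 TPM against 3.06 and 2.55 TPM and did not pass after centring (adjusted p = 0.0705), nor did Daxx, an H3.3 chaperone (0.0537).

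Several genes of the region went the other way. The largest lower calls within 2 Mb were Sapcd1 and Sfta2. Sapcd1 had 0.72 and 1.06 TPM against 17.2 and 10.7 TPM (-2.95, SE 0.27, and -3.39 after GC centring). Sfta2 had 2.84 and 1.63 TPM against 19.9 and 22.3 TPM (-2.80, SE 0.23, and -2.87 after centring). Pfdn6, a prefoldin subunit, had 224.6 and 223.0 TPM against 393.2 and 320.6 TPM (-0.66, SE 0.13). The MHC genes H2-Aa and H2-D1 were lower as well, at 2.60 and 2.43 TPM against 9.38 and 7.55 TPM and at 1.40 and 1.99 TPM against 5.77 and 4.26 TPM. H2-Aa was higher without overlap in PRC1 cKO than in PRC2 cKO growing oocytes (2.73 on the log2 scale). Over the list of MHC region genes, 18 of 40 in the tables reached the filter, and 9 of these were higher and 3 lower. That is 66.7% called, against 26.4% of all genes. The list also holds Phf1, called higher, which starts at chr17:26933052 and so not within 2 Mb of Ring1. After GC centring the counts were 6 and 5, or 61.1% called against 23.3% of all genes.

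**Figure D4:**
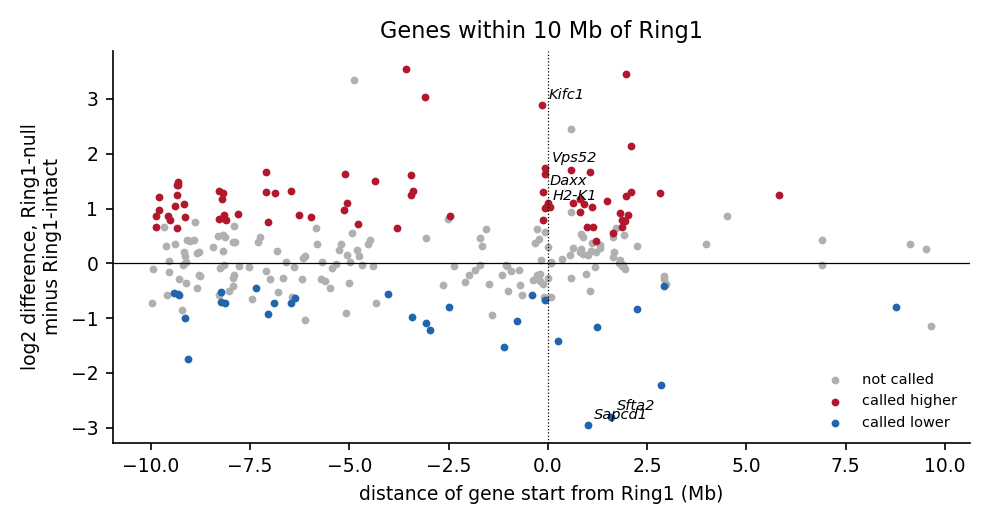
Distance of each tested gene's start from the start of Ring1 on chromosome 17 (horizontal axis, Mb) against the log2 difference, Ring1-null minus Ring1-intact (vertical axis); each point is a gene, red called higher, blue called lower and grey not called. Of 261 genes, 73 are red and 30 blue, and Kifc1, at 2.89, is among the highest points near the dotted line that marks Ring1.

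The Polycomb genes were described by role, from lists chosen with earlier results known. The share to set beside each list is that of all genes tested, 13.4% called higher and 13.0% lower. Of the 6 tested genes of the PRC1 core, Rnf2 and 5 PCGF genes whose products define the PRC1 subtypes, limma called 0 higher and 2 lower, and at an unadjusted p under 0.05 the counts were 0 and 3. Pcgf1, of the variant complex PRC1.1, had 393.5 and 358.1 TPM against 596.9 and 671.0 TPM (-0.75, SE 0.11, limma adjusted p = 0.0166). Pcgf6, of PRC1.6, had 58.9 and 46.0 TPM against 76.7 and 87.6 TPM (-0.65, SE 0.16, limma adjusted p = 0.0389), and it missed the threshold after GC centring (0.0528). Bmi1 (Pcgf4), the subunit of canonical PRC1.4, had 29.9 and 20.9 TPM against 34.5 and 42.5 TPM and did not pass (0.0889).

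Of 9 canonical PRC1 genes tested, 3 were called higher and 0 lower, where limma called 13.4% and 13.0% of all genes. At an unadjusted p under 0.05 the counts were 5 and 0. Phc1 and Phc2 encode polyhomeotic proteins that polymerise and compact chromatin, and Scmh1 encodes their partner of the sex comb on midleg family. Phc1 had 8.20 and 9.93 TPM against 5.09 and 4.96 TPM (0.74, SE 0.17). Phc2 had 11.7 and 12.9 TPM against 6.15 and 5.24 TPM (0.99, SE 0.16). Scmh1 had 12.8 and 13.6 TPM against 8.49 and 7.07 TPM (0.70, SE 0.16). After GC centring Scmh1 passed with an adjusted p of 0.0441, while Phc1 had 0.0594 and Phc2 0.0533. Cbx2, the CBX protein that compacts chromatin, had 5.10 and 7.68 TPM against 2.93 and 3.22 TPM (limma adjusted p = 0.0523).

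Among 21 partners of variant PRC1, 5 were called higher and 3 lower. L3mbtl2, a PRC1.6 subunit, had 27.3 and 38.0 TPM against 14.3 and 9.67 TPM (1.38, SE 0.25). Wdr5, a scaffold found in PRC1.6 and in H3K4 methyltransferases, had 80 and 94.4 TPM against 38.0 and 39.6 TPM (1.14, SE 0.12), and Max, the MYC partner also found in PRC1.6, had 20.4 and 19.2 TPM against 10.6 and 11.1 TPM. Hdac1 and Fbrsl1 were the other higher genes. Cbx3, which encodes HP1 gamma, had 15.6 and 15.8 TPM against 52.2 and 49.4 TPM (-1.63, SE 0.11, limma adjusted p = 0.00338), and it was lower after GC centring too (-1.28). Hdac2, the deacetylase paralog of Hdac1, was called lower, with 9.64 and 7.81 TPM against 15.0 and 13.9 TPM, as was Csnk2a2. After GC centring Hdac1 (0.0592), Hdac2 (0.106) and Fbrsl1 (0.514) did not pass.

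PRC2 genes were called in both directions, 2 higher and 2 lower of 10 tested. The accessory factor Phf1 had 15.4 and 24.6 TPM against 5.11 and 5.71 TPM (1.68, SE 0.25, limma adjusted p = 0.0169). Its gene (chr17:26933052-26937908) starts within 10 Mb of Ring1 but not within 2 Mb. Jarid2, which helps to recruit PRC2, had 21 and 22.4 TPM against 13.0 and 13.5 TPM (0.67, SE 0.13). The core subunit Suz12 had 13.7 and 10.4 TPM against 18.8 and 20.1 TPM (-0.67), and the accessory factor Mtf2 had 49.5 and 52.3 TPM against 75.0 and 81.5 TPM (-0.61). Phf1 and Jarid2 passed after GC centring, and Suz12 (0.105) and Mtf2 (0.171) did not. The methyltransferase Ezh2 had 141.2 and 88.4 TPM against 165.2 and 171.3 TPM and was not called (0.11).

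The list of enzymes that remove ubiquitin from H2A and of BAP1 partners gave 3 higher and 0 lower of 10 tested, by limma's adjusted p and also at an unadjusted p under 0.05. Of all genes, 26.4% were called by the adjusted p. The 3 were among the 6 tested deubiquitinases, and none of the 4 tested BAP1 partners was called. Bap1, the catalytic subunit of the PR-DUB complex, had 16.0 and 25.6 TPM against 5.66 and 5.78 TPM (1.66, SE 0.24, limma adjusted p = 0.0166). Usp3 had 117.9 and 124.3 TPM against 85.3 and 88.2 TPM (0.48, SE 0.09), and Usp21 had 9.59 and 18.3 TPM against 4.14 and 5.48 TPM (1.31, SE 0.33). Bap1 and Usp3 passed after GC centring and Usp21 did not (0.0849). Usp16, another H2A deubiquitinase, had 79.6 and 63.7 TPM against 87.1 and 83.1 TPM and was not called.

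Developmental regulators that are typical Polycomb targets were mostly under the filter in both groups. Of 110 in the list, 9 reached the filter and 36 were listed at 0 in the 4 libraries. The homeobox gene Otx1 was called, alone among the 9, with 3.38 and 3.58 TPM against 0.95 and 1.24 TPM (1.1, SE 0.18, limma adjusted p = 0.0194). Cdkn2a, the cell cycle inhibitor locus known as a PRC1 target, had 1.17 and 2.90 TPM against 0.77 and 0.84 TPM and was not called (0.152). The homeobox gene Meis2 was the most abundant, at 300.1 and 212.7 TPM against 323.4 and 374.9 TPM. The summed level of the list was 345.6 and 263.7 TPM in the Ring1-null libraries and 367.6 and 413.5 TPM in the Ring1-intact libraries.

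**Figure D5:**
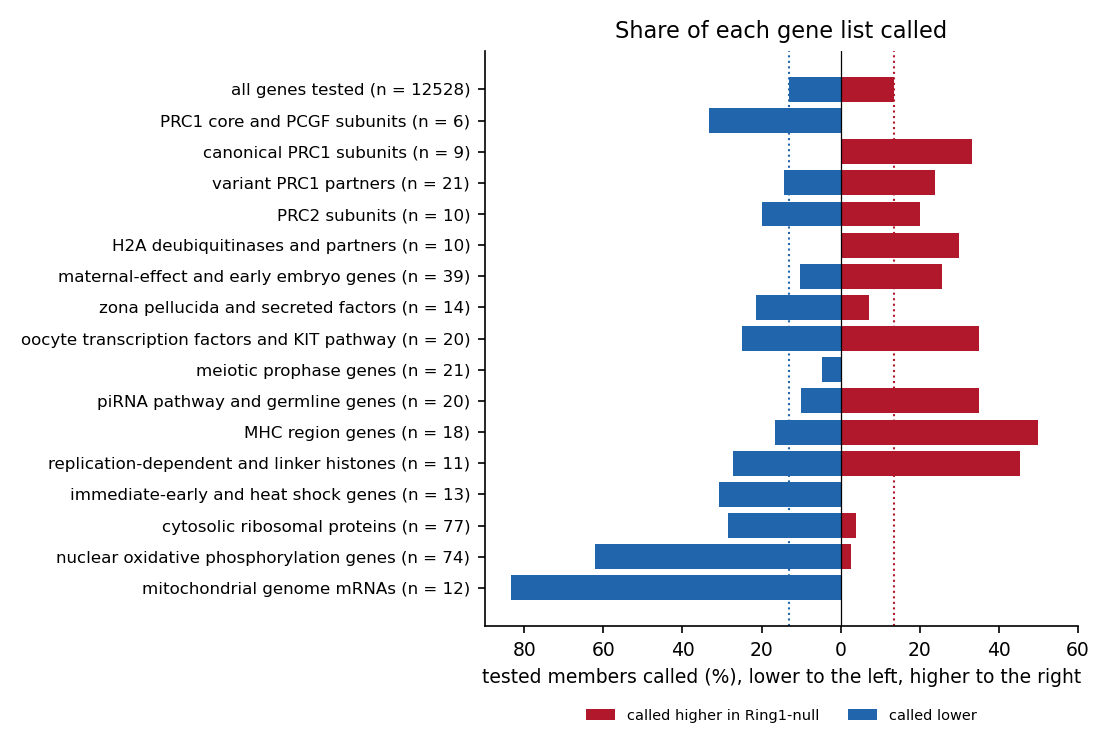
Share of the tested members of each gene list that limma called (horizontal axis, %), lower in the Ring1-null libraries to the left in blue and higher to the right in red; dotted lines mark the shares for all genes tested, 13.0% and 13.4%. The longest blue bars belong to the mitochondrial genome mRNAs, with 10 of 12 lower, and the nuclear oxidative phosphorylation genes, with 46 of 74 lower.

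Genes of the maternal store were abundant in both groups. Of 39 maternal-effect and early embryo genes tested, 10 were higher and 4 lower, or 35.9% called against 26.4% of all genes. Uhrf1, which brings DNMT1 to newly replicated DNA, had 182.6 and 285.0 TPM against 76.0 and 70.0 TPM (1.63, SE 0.22, limma adjusted p = 0.0155). Dnmt1, the maintenance DNA methyltransferase, had 244.3 and 306.4 TPM against 129.6 and 126.8 TPM (1.09, SE 0.13, limma adjusted p = 0.0143). Dppa3 (Stella), which limits both proteins in oocytes, was lower, at 6683 and 5800 TPM against 14599 and 14222 TPM (-1.21, SE 0.14, limma adjusted p = 0.0133). The 3 genes kept their calls after GC centring, with differences of 1.42, 0.87 and -1.07. PRC1 cKO minus PRC2 cKO growing oocytes was 0.22 for Uhrf1, with overlap. It was -1.27 for Dnmt1 and -1.06 for Dppa3, both without overlap. Dnmt1 thus stood in the opposite direction there.

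Members of the subcortical maternal complex were called higher or not called. Padi6 had 4462 and 5320 TPM against 2700 and 2493 TPM (0.91, SE 0.14), and Tle6 and Zbed3 were also called higher. Nlrp5 had 2296 and 2306 TPM against 2777 and 3924 TPM and Ooep 461.5 and 460.0 TPM against 618.1 and 549.3 TPM, and neither was called (0.0929 and 0.0638). The zona pellucida genes Zp1, Zp2 and Zp3 and the growth factor gene Gdf9 were not called. In the same list Fgf8, a signal from the oocyte to granulosa cells, was higher at 97.8 and 92.6 TPM against 59.7 and 64.0 TPM, and the relaxin family gene Rln3 lower at 186.1 and 176.3 TPM against 362.5 and 349.6 TPM. Oosp2, a secreted oocyte protein, and Cd9, the tetraspanin needed for sperm fusion, were the other 2 called lower, of 14 tested. In this list 28.6% were called, near the 26.4% of all genes. After GC centring Fgf8 was at 0.14 with an adjusted p of 0.473, Zp3 was called lower (-0.62, adjusted p = 0.0419), and the list had 0 higher and 5 lower, against 1 higher and 3 lower without centring.

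Of 20 genes listed as oocyte transcription factors or for the KIT pathway, 7 were higher and 5 lower. These are 35% and 25%, against 13.4% and 13.0% of all genes. Kit, the receptor through which granulosa cells start oocyte growth, had 90.8 and 108.7 TPM against 49.1 and 43.0 TPM (1.1, SE 0.14, limma adjusted p = 0.0143). The list also holds Pdk1, pyruvate dehydrogenase kinase 1, which shares an abbreviation with the PI3K pathway kinase but is no member of that pathway. Without it 6 of 19 were higher and 5 lower. Pdk1 had 34.3 and 43.4 TPM against 13.9 and 10.1 TPM (1.63, SE 0.20). Kit and Pdk1 were called after GC centring, with differences of 1.09 and 1.75. Lhx8, Nobox and Sohlh2, regulators of early oocyte growth, were higher as well, whereas Figla had 267.6 and 330.1 TPM against 401.8 and 331.6 TPM and was not called. After GC centring Lhx8 and Sohlh2 passed, Nobox did not (0.34, adjusted p = 0.0775), and Figla was called lower (-0.50, adjusted p = 0.0441). The lower genes included Tbpl2, the oocyte TBP paralog, with 121.7 and 119.1 TPM against 202.4 and 201.5 TPM, and the homeobox genes Obox1 and Obox5, of which Obox1 did not pass after centring (0.0825).

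The piRNA pathway, which silences transposons with small RNAs in germ cells, had 6 genes higher and 2 lower of 15 tested. These are 40% and 13.3%, against 13.4% and 13.0% of all genes. Besides Tdrd9, the higher genes included Piwil2, a PIWI protein, with 18.1 and 26.4 TPM against 9.14 and 7.56 TPM (1.29), Pld6, a mitochondrial factor of piRNA biogenesis, with 12.3 and 17.7 TPM against 5.30 and 4.31 TPM (1.45), and Mov10l1, a helicase, with 27.2 and 36.0 TPM against 15.7 and 10.6 TPM (1.21). Each of these 4 passed after GC centring. Gtsf1, a zinc finger protein of the same pathway, was lower, at 848.4 and 686.2 TPM against 1504 and 1479 TPM (-0.97, SE 0.13). Meiotic prophase genes had 0 of 21 higher and 1 lower, or 4.76% called against 26.4% of all genes. The lower one was the synaptonemal complex gene Sycp3 (282.3 and 302.6 TPM against 401.3 and 377.9 TPM, -0.41). At an unadjusted p under 0.05, 1 was higher and 2 lower. After GC centring Sycp3 was at -0.06 (adjusted p = 0.76), and the single call of the list was Hormad1, higher by 0.94 (adjusted p = 0.035).

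Most tested genes of the respiratory chain, nuclear and mitochondrial, were called lower in the Ring1-null libraries. Of 74 nuclear oxidative phosphorylation genes tested, 46 (62.2%) were lower and 2 (2.70%) higher, with a median of -0.47. Among all genes 13.0% were lower and 13.4% higher. Ndufa12, a complex I subunit, had 156.6 and 136.9 TPM against 347.9 and 336.5 TPM (-1.22, SE 0.11, limma adjusted p = 0.00769). Cycs, cytochrome c, had 15.7 and 15.3 TPM against 35.8 and 39.2 TPM (-1.22, SE 0.12). Ndufb8, another complex I subunit, had 285.2 and 275.1 TPM against 529.2 and 510.7 TPM (-0.89, SE 0.09). The 2 higher genes were Atp5d, of ATP synthase, and Sdhc, of complex II.

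Of 12 mitochondrial mRNAs tested, 10 (83.3%) were lower and 0 higher by limma, against 13.0% and 13.4% of all genes. The counts were the same at an unadjusted p under 0.05. Their summed level was 2807 and 2257 TPM against 8506 and 8460 TPM. mt-Cytb, cytochrome b, had 584.7 and 380.3 TPM against 2402 and 2275 TPM (-2.31, SE 0.21, limma adjusted p = 0.00888). mt-Atp8, an ATP synthase subunit, had 996.0 and 881.1 TPM against 3427 and 3225 TPM (-1.83, SE 0.11). The exceptions, mt-Co3 and mt-Nd4l, had differences above 0 that were not called, with wide spreads between libraries of a group. Of the 12 mRNAs, all but mt-Co3 differed by at least 2-fold, so mt-Nd4l did so upward. mt-Co3 had 161.9 and 125.9 TPM against 54.5 and 164.9 TPM. These mRNAs were lower while mitochondrial tRNA models were above 0 in the same libraries.

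In the PRC1 and PRC2 cKO growing oocytes the same genes were closer together. On the log2 scale, PRC1 cKO minus PRC2 cKO was -0.24 for mt-Atp8, -0.40 for Ndufa12 and -0.22 for Ndufb8, and -1.20 for mt-Cytb. The difference between the 2 comparisons was not tested. With the values as deposited, without joint rescaling, the median of the nuclear oxidative phosphorylation genes was -0.18 against 0.22 for all genes. After GC centring it was -0.55, with 45 lower and 0 higher, and the mitochondrial mRNAs had a median of -1.02 with 10 lower and 0 higher.

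Cytosolic ribosomal protein genes had 22 (28.6%) lower and 3 (3.90%) higher of 77, against 13.0% and 13.4% of all genes, with a median of -0.24. As deposited the median was 0.04, against 0.22 for all genes. With quantile normalization it was 0.01, against -0.03 for all genes, so the sign depended on the scaling. After GC centring 30 were lower and 2 higher, with a median of -0.32. Rpl35a had 105.4 and 106.5 TPM against 291.4 and 231.6 TPM (-1.29, SE 0.13) and Rpl38 107.1 and 89.9 TPM against 206.1 and 188.3 TPM (-0.999, SE 0.12). The 3 higher genes were Rps2, Rpl29 and Rps18, of which Rpl29 did not pass after GC centring (0.422), and Rps18 lies 68.8 kb from Ring1. The shortest of the 5 groups of transcripts by length, up to 1852 bases, had a median of -0.19. By longest transcript, Rpl38 (457 bases) and Ndufa12 (1386) fall in that group. Rpl35a (2858), Cycs (3123) and Ndufb8 (2142) do not. What part length has in the ribosomal and respiratory lists was not tested.

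The listed histone genes were called in both directions, 5 higher and 3 lower of 11 tested, and 3 higher and 3 lower after GC centring. Called members made up 72.7%, against 26.4% of all genes, and 54.5% after centring, against 23.3%. The list is incomplete, as 17 of its 35 symbols were found. The H2B genes H2bc12 and H2bc13 are not counted in it. Both were called higher, with 74.2% and 82.8% of their 50-base words shared with other genes. H2bc4, a replication-dependent H2B gene, had 143.3 and 167.8 TPM against 65.8 and 51.9 TPM (1.39, SE 0.16), and H2ax, the variant phosphorylated at DNA breaks, had 118.7 and 139.8 TPM against 56.4 and 66.3 TPM (1.06, SE 0.14, and 0.59 after centring). H2az1, an H2A.Z gene, had 199.4 and 179.0 TPM against 360.2 and 364.4 TPM (-0.94, SE 0.10). H3f3b, an H3.3 gene, and H1f0, a linker histone, were also lower, while the oocyte linker histone H1f8 was not called, at 4300 and 3681 TPM against 4500 and 4964 TPM.

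Markers of the other cells of the ovary were low in the 4 libraries, and their tested members were not called. The summed level of 17 granulosa cell markers was 13.4 and 18.3 TPM in the Ring1-null libraries and 15.0 and 15.4 TPM in the Ring1-intact libraries, of which 5 could be tested. Stromal and theca markers summed to 3.13 and 1.82 TPM against 4.30 and 4.89 TPM, endothelial markers to 7.24 and 5.54 TPM against 5.88 and 9.13 TPM, and immune and blood markers to 13.7 and 13.9 TPM against 17.1 and 15.6 TPM. The 12 oocyte markers summed to 25680 and 25352 TPM against 33375 and 33484 TPM. Dppa3 was lower by more than that gap. In bulk libraries fewer cells of a type and less RNA per cell cannot be told apart. Of 13 immediate-early and heat shock genes, limma called 0 higher and 4 lower (Hsp90aa1, Hspa8, Dnajb1 and Klf6). That is 30.8% called, near the 26.4% of all genes. At an unadjusted p under 0.05 the counts were 2 and 4, and the median of -0.16 was 0.03 as deposited. After GC centring 0 were higher and 5 lower: Klf6 did not pass (0.121), and Ier2 (0.0289) and Hspb1 (0.0493) did.

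Whether the 2 control groups differ in their progress of growth was described with genes that change 4-fold or more between non-growing and growing PRC2 cKO oocytes, libraries that are no part of the comparison. Limma called 9.08% of 13241 genes higher in the growing cells by that rule and 2.32% lower. Of the genes higher with growth, 1194 were tested here, with 198 higher and 201 lower in the Ring1-null libraries and a median of -0.13. Of those lower with growth, 205 were tested, with 6 higher and 41 lower and a median of -0.24. Both medians were below the -0.03 of all genes, but the calls of the 2 lists differed. Of the genes higher with growth, 16.6% were called higher and 16.8% lower. Of those lower with growth, 2.93% were called higher and 20% lower. Among all genes these shares were 13.4% and 13.0%. As deposited, the medians were 0.13 and 0.00, against 0.22 for all genes. After GC centring the first list had 176 higher and 197 lower, with a median of -0.09. The second had 8 higher and 35 lower, with a median of -0.22. Whether the 2 control groups differ in growth was not tested.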

How the data were processed

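Total RNA of growing oocytes was made into libraries with a low-input kit and sequenced as paired 150-base reads, per the labels' protocols. The authors deposited TPM per gene in 2 tables, and no read counts or depths were used here, so depth is unknown and gives no interval. The submitters' processing notes name Trim Galore 0.6.10, HISAT2, SAMtools, Subread 2.0.3, RSEM 1.3.3 and build GRCm38; the step that gave TPM is not stated there.

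The tables were joined by gene ID. Gene class, coordinates, transcript length and GC content came from the GENCODE annotation given for build GRCm38. Each library sums to about 1000000 TPM as deposited. The 4 control growing columns were rescaled together by a trimmed mean (30% of log ratios and 5% of mean levels trimmed at each end), with factors of 1.054 and 1.157 for the Ring1-null and 0.901 and 0.910 for the Ring1-intact libraries. Genes at 1 TPM or more in at least 2 libraries were kept. Differences of log2(TPM + 1) were tested with limma 3.58.1 in R 4.3.3 (eBayes with trend, 2-sided, Benjamini-Hochberg). An exact permutation test over 2 against 2 libraries cannot pass 0.05. Tested on simulated data for this comparison with 12528 genes, the fit recovered 27% of 2-fold and 89% of 4-fold changes when 200 genes were changed, and 63.9% and 99.4% when 4000 were. Of the calls, 7.2% and 3.12% were false. The simulated noise was normal and independent between genes, without the GC trend of these data.

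The members and gene lists were chosen with earlier results of these data known. Named genes are Ring1, Rnf2 and Eed, the 12 largest differences in each direction among called genes whose groups do not overlap and whose mean reaches 5 TPM in either group (predicted models left out, 113 of 1335 higher and 254 of 1448 lower), and up to 3 genes per list with the smallest p. The 12 largest protein-coding genes not listed at 0 in either group in each direction (related-sequence copies left out), the other list members given with values, and the neighbours of Ring1 were added after values were seen. Alternatives were other scalings, pseudocounts and filters, a replicate block, leaving out each library, the 8 growing libraries in 1 fit, and, added after seeing the data, nuclear protein-coding genes only and centring of each library within 20 bins of GC content. A gene that the rule names is not reported here.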

Additional observations from a re-analysis of the deposited data

How the results depend on the processing

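The count of 3308 called genes stayed within 1.5 times under other scalings, pseudocounts, a filter of 5 TPM, no trend, nuclear protein-coding genes only and GC centring. It was 1466 with the replicate block, 2168 with GC centring and the replicate block together, 1015 with the 8 growing libraries in 1 fit, 1171 with a 2-fold minimum, and 48 with no low-value filter (31 higher and 17 lower). Leaving out 1 library gave between 5 and 481. Deviations from the group mean had r = 0.0089 between libraries with the same replicate number. With 2 libraries per group this is a single value, which cannot show whether such libraries shared handling. As deposited, without joint rescaling, the median of all genes moved from -0.03 to 0.22 and the calls to 2756 higher and 708 lower, against 1681 and 1627. Of the 102 named genes, 86 were called; 74 of these were called with the replicate block, 79 with GC centring, 52 with the 8 growing libraries, 15 with no low-value filter, 47 and 43 without the first and second Ring1-intact library, and 0 without either Ring1-null library. No named gene reversed. As deposited, the medians of PRC2 subunits (0.07), maternal-effect genes (0.13), zona and secreted factors (0.05), meiotic genes (0.04) and oocyte markers (0.06) changed sign. Without depth, the precision of low genes such as Ring1 cannot be given.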

Other observations

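Imprinted genes, expressed from 1 parental allele in most tissues, gave 3 higher and 1 lower of 17 tested. That is 23.5% called, near the 26.4% of all genes tested. Gab1, an adaptor of receptor kinases, had 2.87 and 2.39 TPM in the Ring1-null libraries against 0.68 and 0.65 TPM (1.12, SE 0.18, limma adjusted p = 0.0186). Grb10, another adaptor, had 12.8 and 13.4 TPM against 6.88 and 8.67 TPM (0.69, SE 0.17), and Dlk1, a Notch ligand homologue, had 2.01 and 2.90 TPM against 1.13 and 0.63 TPM (adjusted p = 0.0492, and 0.0746 after GC centring). Phlda2, which restrains placental growth, was lower, at 2.90 and 2.22 TPM against 7.29 and 6.57 TPM (-1.16, SE 0.19).

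Interferon-stimulated genes were called 2 higher and 2 lower of 9 tested, or 44.4% against 26.4% of all genes. The membrane proteins Ifitm2 and Ifitm3, which block virus entry, were lower, with 2.51 and 2.57 TPM against 9.48 and 12 TPM for Ifitm3 (-1.72, SE 0.19). The transcription factor Irf1 was higher, with 55.6 and 60.3 TPM against 32.8 and 30.5 TPM (0.85, SE 0.11), as was Stat2. After GC centring the counts were 2 higher and 4 lower.

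The Y-linked gene Kdm5d was listed at 131.0 and 113.0 TPM in the Ring1-null and 133.9 and 127.4 TPM in the Ring1-intact libraries, a difference of -0.10 that was not called, although oocytes carry no Y chromosome. Of its 50-base words, 2.27% occur in transcripts of other genes.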
